A study of Mus musculus with 5 samples.

Results

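Kidneys at 12 h after ischemia-reperfusion injury (IRI) were compared with kidneys of sham-operated mice, for all 1247 mouse miRNAs on the array. The 12 h group came from male C57B/6 mice with bilateral renal IRI, 30 min of warm ischemia, and 12 h of reperfusion. The sham group had the same surgery without a vascular clamp, and its time after surgery is not given in the labels. The mice carried no engineered allele in either group as far as the labels say, and neither their age nor a drug treatment is stated. RNA was taken from 20 mg of kidney tissue, and 0.1 µg of it was labelled with the dye Cy3 and hybridized to an Agilent mouse miRNA array. The series holds 5 arrays, 1 each for sham and 6, 12, 24, and 48 h, and this comparison uses 2 of them. According to the methods each time point had 8 mice, with no statement on whether their RNA was pooled, so no spread between animals was measured and no test was possible. Errors given below are scanner errors, the probe errors deposited with each array and combined over the detected probes of a miRNA. They do not include differences between mice or arrays, and are not read here as a spread of repeated measurements. The sham array lay on slide 1 and the 12 h array on slide 2, which means that the effect of the slide and that of the injury cannot be told apart.

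miRNAs are short RNAs that guide Argonaute proteins to messenger RNAs, mostly through the seed at bases 2 to 8, and lower the output of those messages. They are cut from hairpin precursors, and each hairpin can give a 5p and a 3p arm. In the kidney, tubule epithelium is rich in the miR-30, miR-192/194, and miR-10 families, miR-126 marks endothelium, and miR-223 marks neutrophils and other myeloid cells. miR-21 is known to be induced in injured kidney, and miR-210 is known as a miRNA induced by hypoxia. Ischemia-reperfusion starves tubules of oxygen and then returns it, which injures tubule cells and draws leukocytes into the tissue.

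At 12 h the clearest group among the higher signals was a set of miRNAs read by probes with a CA or GT dinucleotide repeat, such as miR-3082-5p, miR-574-5p, miR-1187, and the miR-466 family. GC-rich miRNAs such as miR-2861, miR-6538, and miR-5126 were also higher, as was miR-21a-5p. For miR-210-3p, miR-34a-5p, let-7e-5p, and miR-100-5p the ratio of 12 h over sham was lower than that of the median miRNA. The mature sequences of miRNAs that carry these patterns are shown first, written 5′ to 3′. They come from RefSeq, build GRCm38.p6, which held 1028 of the 1247 names on the array, 1026 of them with a sequence that the probe of the array matched. The first set is shown because its repeat is what these miRNAs share, and capitals mark runs of at least 6 alternating bases.
miR-3082-5p: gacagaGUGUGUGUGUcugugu
miR-574-5p: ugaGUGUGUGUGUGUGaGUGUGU
miR-1187: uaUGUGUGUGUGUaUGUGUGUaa
miR-669n: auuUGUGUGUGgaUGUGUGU
miR-466i-3p: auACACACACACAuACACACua
miR-467f: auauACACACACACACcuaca
miR-466q: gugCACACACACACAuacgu
The longest probe of miR-466i-5p, for which no mature sequence was matched, is made of the repeat alone, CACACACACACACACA. The second set holds 3 GC-rich miRNAs with higher signal, with the seed in capitals.
miR-2861: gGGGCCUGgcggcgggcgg
miR-6538: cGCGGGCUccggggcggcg
miR-5126: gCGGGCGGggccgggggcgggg
The third set holds the best known miRNAs that differed, with the seed in capitals.
miR-21a-5p: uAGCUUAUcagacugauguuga
miR-21a-3p: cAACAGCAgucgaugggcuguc
miR-223-3p: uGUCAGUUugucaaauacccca
miR-210-3p: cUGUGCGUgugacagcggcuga
miR-34a-5p: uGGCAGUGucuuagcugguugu
miR-342-3p: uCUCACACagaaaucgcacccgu
The last set shows pairs that share a seed. let-7a-5p and let-7e-5p share GAGGUAG, miR-99a-5p and miR-100-5p share ACCCGUA, and miR-29a-3p and miR-29b-3p share AGCACCA.
let-7a-5p: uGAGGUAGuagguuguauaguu
let-7e-5p: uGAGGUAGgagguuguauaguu
miR-99a-5p: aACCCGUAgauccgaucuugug
miR-100-5p: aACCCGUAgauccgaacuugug
miR-29a-3p: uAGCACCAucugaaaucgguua
miR-29b-3p: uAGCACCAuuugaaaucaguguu

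Of the 1247 miRNAs, 208 (16.7%) were detected on both arrays, 71 at 12 h but not in sham, 11 in sham but not at 12 h, and 957 on neither. Below, detection only at 12 h or only in sham refers to these 2 arrays and says nothing of the other time points. A probe counted as detected when its signal exceeded 3 times its error, and the signal of a miRNA was the sum of its detected probes at 1 effective feature size, in intensity units of the scanner. The summed signal of all miRNAs was 108605 in sham and 160833 at 12 h, a log2 ratio of 0.57. The 10 miRNAs with the most signal, each read by its own probes, held 63.7% of the sham total and 66.1% of the 12 h total, and 7 of them were shared. For the 208 miRNAs the log2 ratio of 12 h over sham had a median of 0.25 (1.19-fold), quartiles of −0.18 and 1.11, and a range from −1.74 to 4.70. After division by the effective feature size and before any further scaling, 131 miRNAs had a higher signal at 12 h and 77 a lower one.

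All further ratios are log2 ratios of 12 h over sham, relative to this median, unless another scale is named. A miRNA was called higher or lower when its ratio lay at least 1 log2 unit from the median. By this rule 48 miRNAs (23.1%) were higher and 6 (2.88%) were lower, and all 54 lay beyond 2 scanner errors. Some of these ratios, among them several of the most extreme, compare unequal numbers of detected probes. With only the probes detected on both arrays, 45 of the 48 and 4 of the 6 were called again. The distribution was lopsided, since 25 miRNAs were at least 2 log2 units above the median while miR-210-3p, the lowest, lay at −1.995. A further 101 miRNAs (48.6%) lay within 0.5 of the median. The called miRNA nearest to the upper limit had a ratio of 1.04 and the nearest not called 0.94, and at the lower limit these values were −1.04 and −0.95. The median scanner error of a ratio was 0.19, with a range from 0.10 to 0.60.

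The share of higher and lower calls varied with the scaling and the signal summary. The 4 spike-in RNAs dmr_285, dmr_31a, dmr_6, and dmr_3, which do not come from the kidney, were on average 1.61-fold brighter at 12 h, a log2 ratio of 0.69. After scaling by them the median miRNA lay at −0.43, with 40 miRNAs (19.2%) called higher and 34 (16.3%) called lower. The split was 40 higher and 28 lower after quantile normalization and 45 and 11 after loess centring. It was 50 and 39 in the authors' processed table and 41 and 17 with the deposited total gene signals, which differ in more than the scaling. Across these settings the higher calls numbered 40 to 50 and the lower calls 6 to 39. The plot of the 12 h signal against the sham signal shows the long upper tail. The 48 miRNAs called higher had a median sham signal of 24.6, beside 60.1 for all 208, and a median 12 h signal of 146, beside 121. Both signals enter the ratio that defines the 48, so these medians are a description only.

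**Figure D1:**
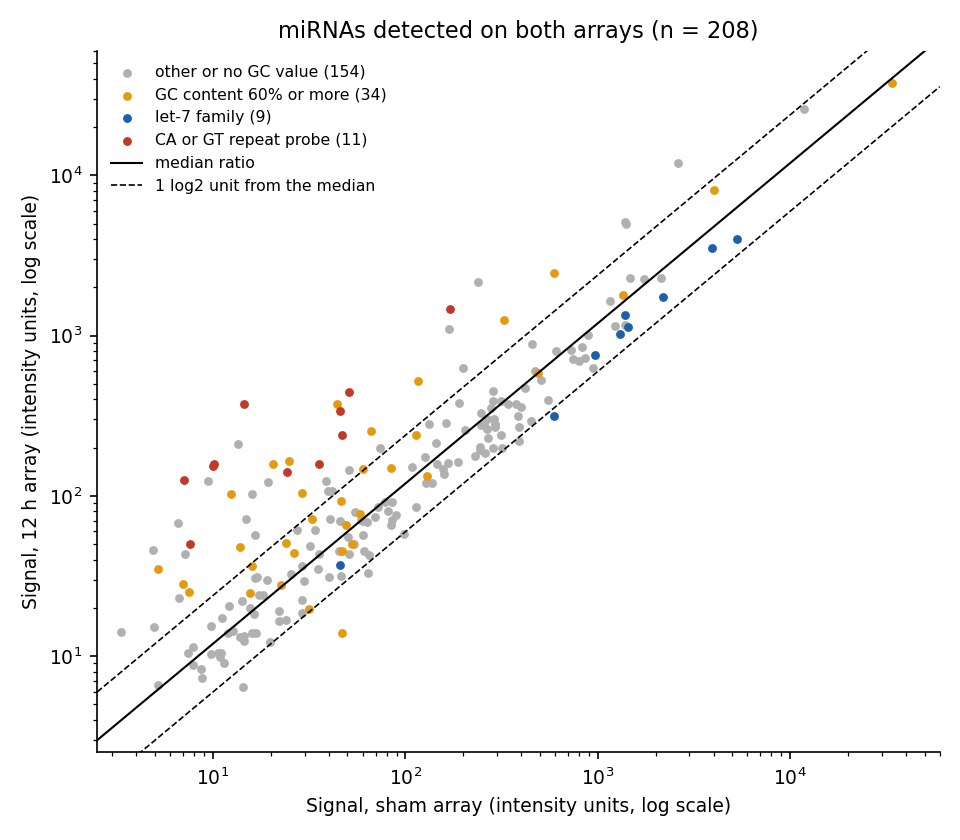
Signal of each of the 208 miRNAs detected on both arrays, sham on the horizontal axis and 12 h on the vertical axis, in intensity units on log axes. The solid line is the median ratio (1.19-fold) and the dashed lines lie 1 log2 unit from it; all 11 miRNAs with a repeat probe lie above the upper dashed line, and all 9 let-7 members lie below the solid line.

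The repeat group was defined by the probe, after the values had been seen. A miRNA belonged to it when its longest probe held ACACACA or TGTGTGT, the reverse complement, which 39 of the 1247 miRNAs (3.13%) did. Of 1679 mature miRNAs in RefSeq, 16 (0.953%) held ACACACA or UGUGUGU. Among the 39, 11 were detected on both arrays, 4 only at 12 h, none only in sham, and 24 on neither. All 11 were called higher, with ratios from 1.90 to 4.44 and a median of 2.84, beside 23.1% of all 208 miRNAs. The remaining 197 miRNAs had a median of −0.07, and 37 of them were called higher. After spike-in scaling the median of the 11 was 2.41, and over all alternatives it lay between 1.87 and 3.15.

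miR-3082-5p had the highest ratio of all miRNAs. Its signal was 14.4 ± 2.48 (scanner error) in sham and 373 ± 28.5 at 12 h, a ratio of 4.44 ± 0.27. This compares 1 detected probe in sham with 2 at 12 h, and under the alternatives the ratio lay between 2.45 and 4.54. The signal was 36.1, 60.9, and 28.2 at 6, 24, and 48 h, so the 12 h array stood above the other 4. Its gene lies at chr17:25831406-25831427 on the minus strand, where the annotation also places the protein-coding genes Jmjd8 and Stub1. miR-466i-5p had a signal of 171 ± 12.5 in sham and 1466 ± 105 at 12 h, a ratio of 2.84 ± 0.15. At 6, 24, and 48 h its signal was 363, 459, and 333, again highest at 12 h. The other arm of this hairpin, miR-466i-3p (chr13:17747552-17747573, plus strand, within Cdk13), went from 9.95 to 153, a ratio of 3.69 ± 0.35.

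miR-574-5p lies at chr5:64970328-64970350 on the plus strand, within Fam114a1, with Tlr6 annotated at the same position. Its signal was 50.7 ± 4.78 in sham and 443 ± 33.1 at 12 h, a ratio of 2.87 ± 0.17, and it was 102, 130, and 101 at 6, 24, and 48 h. Its partner arm miR-574-3p has no repeat, was detected at 12 h (83.1 ± 4.93) and at 24 h (5.77), and was not detected on the sham array. This was the highest signal among the 71 miRNAs found at 12 h and not in sham. miR-1187 (chr5:82798964-82798986, minus strand) went from 10.1 ± 2.25 to 158 ± 12.1, a ratio of 3.71 ± 0.34, but was −2.01 with the deposited gene totals, which did not match its own probes in sham. The other members with signal on both arrays were miR-466f-3p (3.89), miR-466h-3p (2.64), miR-669n (2.45), miR-466q (2.29), miR-467f (2.10), and miR-669p-3p (1.90). miR-466f-3p was read by 1 detected probe in sham and 3 at 12 h, and under the alternatives its ratio lay between 0.45 and 4.485. The 4 members detected only at 12 h, by comparison with sham, were miR-466g (67.3), miR-669c-3p (36.7), miR-669h-3p (23.6), and miR-669f-3p (15.3).

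Both strands of the repeat were represented. Among probes with the CA strand, 5 of 18 miRNAs were detected on both arrays, with a median ratio of 2.87, and among probes with the GT strand 6 of 21 were, with a median of 2.47. The members are not independent of each other, because their sequences are alike and the longest probe of miR-466f-3p lies inside the reverse complement of miR-466i-3p. How much of each signal came from another RNA with the same repeat was not tested. Against the same sham array, the median of the 11 miRNAs was 1.08, 2.84, 0.48, and 0.98 at 6, 12, 24, and 48 h, each relative to the median miRNA of that time point. The 12 h and 24 h arrays shared a slide and a scan. Between these 2 arrays, the 11 miRNAs had ratios of 12 h over 24 h from 1.87 to 3.13 with a median of 2.24, while the other 247 miRNAs detected on both had a median of −0.02 and 23 of them reached 1. Since the group was defined with these 12 h values known, this second ratio is a description and no independent support.

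**Figure D2:**
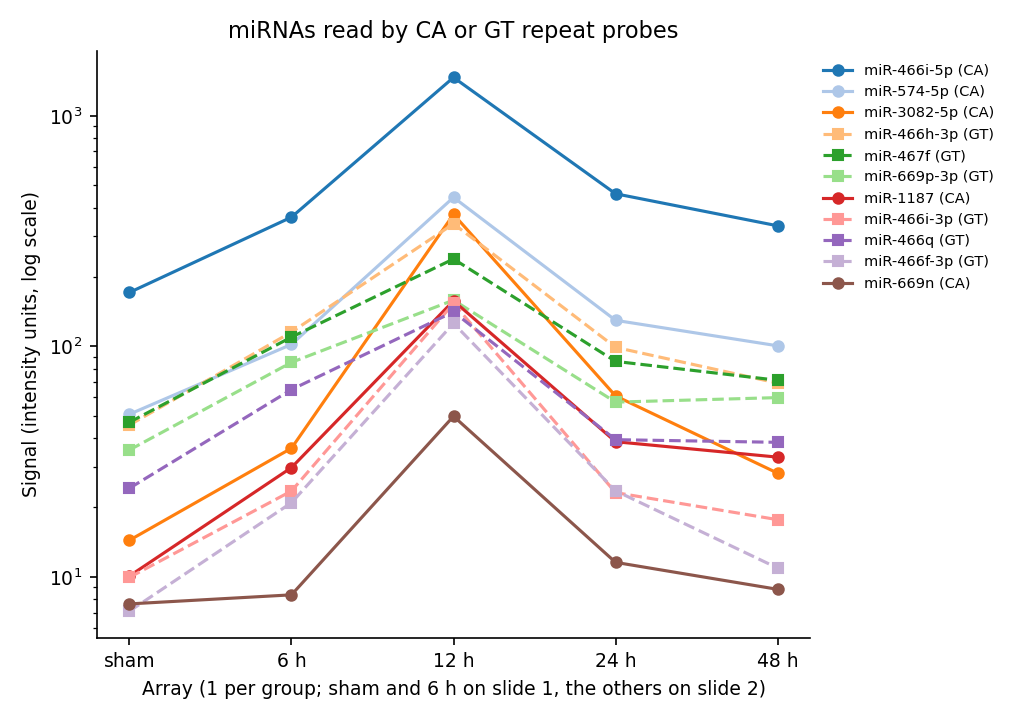
Signal of the 11 miRNAs with a CA or GT repeat probe and detection on both arrays, on each of the 5 arrays (log axis, intensity units, 1 array per group). Circles with solid lines mark CA probes and squares with dashed lines GT probes; all 11 are highest at 12 h, from 49.7 for miR-669n to 1466 for miR-466i-5p.

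The miR-297, miR-466, miR-467, and miR-669 families, which are known for hairpins that arose from simple repeats, overlap this group and were taken by name. Of 61 members on the array, 8 were detected on both arrays. All 8 were called higher, beside 23.1% of all 208 miRNAs, with a median of 2.55. Because of the overlap this count is no separate result. Another 5 were detected only at 12 h and 48 on neither array, beside 71 and 957 of all 1247 miRNAs. The number of members detected was 8 in sham and 9, 13, 8, and 9 at 6, 12, 24, and 48 h. For all miRNAs these numbers were 219, 248, 279, 298, and 197.

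A second group of higher signals was GC-rich. A GC content could be given for 170 of the 208 miRNAs (81.7%). Median ratios were −0.14 for 24 miRNAs with a GC content below 40%, −0.34 for 60 from 40 to 50%, and −0.10 for 52 from 50 to 60%. They were 0.67 for 22 miRNAs from 60 to 70% and 1.27 for 12 of 70% or more, so both upper classes lay above the median miRNA. Of the 34 miRNAs with a GC content of 60% or more, 14 were called higher, beside 23.1% of all miRNAs, and 1 was called lower, namely miR-210-3p. Across these miRNAs Spearman's rho of GC content with the ratio was 0.31 (n = 170), and 0.40 without the repeat probes (n = 163). miRNAs are not independent replicates, and GC content went with probe length (rho −0.79), since this array reads GC-rich miRNAs with shorter probes. Probe length itself had a rho of −0.45 with the ratio, and the part of either property was not tested.

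**Figure D3:**
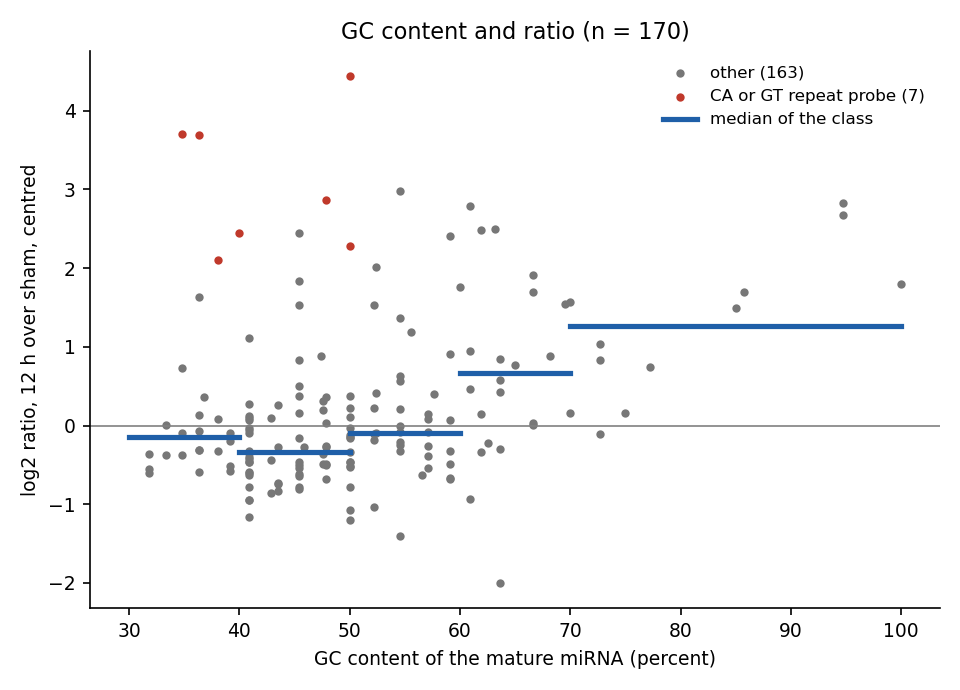
Relative log2 ratio of 12 h over sham against the GC content of the mature miRNA, for the 170 miRNAs with a sequence. Blue bars are medians of the GC classes, which lie at −0.34 for 40 to 50% and at 1.27 for 70% or more; red points are miRNAs with a repeat probe, which lie high at GC contents of 50% or less.

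miR-2861 (chr2:32712819-32712837, minus strand) had a signal of 44.3 ± 4.25 in sham and 375 ± 26.9 at 12 h, a ratio of 2.83 ± 0.17. miR-6538 (chr12:26414970-26414988, minus strand, within Rnf144a) went from 20.6 ± 3.21 to 157 ± 11.9, a ratio of 2.68 ± 0.25. miR-5126 (chr1:84695890-84695911, plus strand, within Dner) went from 595 ± 42.3 to 2472 ± 175, a ratio of 1.80 ± 0.14. The 6 h array shared the slide of the sham array, and the 24 h and 48 h arrays shared that of the 12 h array. At 6, 12, 24, and 48 h, miR-2861 had ratios of 2.58, 2.83, 1.98, and 1.48. Those of miR-6538 were 2.28, 2.68, 1.70, and 1.29. The part of the slide was not tested. miR-3960, for which no sequence was matched, had a 12 h ratio of 2.93 ± 0.15. Its signals were 238, 1480, 2160, 1361, and 558 in sham and at 6, 12, 24, and 48 h.

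Many of these are miRNAs numbered 1000 or above, which entered the registry late and are less studied. Of 449 such miRNAs on the array, 57 were detected on both arrays, and 26 were called higher and none lower, beside 23.1% and 2.88% of all miRNAs, with a median ratio of 0.89. After spike-in scaling 20 were called higher and 3 lower, beside 19.2% and 16.3% of all miRNAs. A further 31 of the 449 had signal at 12 h alone and 1 in sham alone, beside 71 and 11 of all 1247 miRNAs. The median stayed above 0 under every alternative, between 0.29 after quantile normalization and 1.01 in the brighter 104 miRNAs. Among those with much signal, miR-6366 differed little, with 33977 ± 2511 in sham and 37709 ± 2808 at 12 h (ratio −0.10 ± 0.15). miR-3963 went from 11863 ± 926 to 26149 ± 2007 (0.89 ± 0.16) and miR-5109 from 2615 ± 200 to 11937 ± 923 (1.94 ± 0.16).

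**Figure D4:**
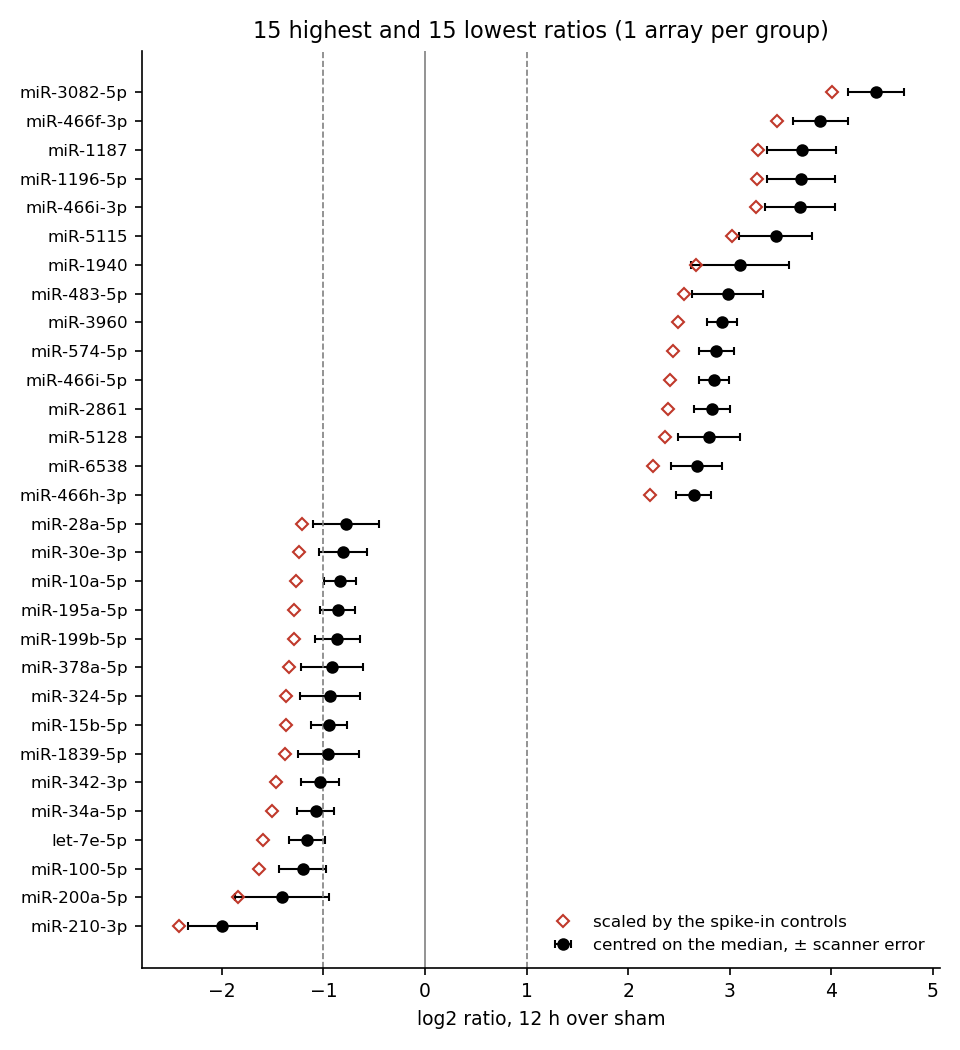
The 15 highest and 15 lowest log2 ratios of 12 h over sham among miRNAs with a scanner error below 0.5. Black points are centred on the median with bars of 1 scanner error, and red diamonds are scaled by the spike-in controls; miR-3082-5p is highest at 4.44 and miR-210-3p lowest at −1.995.

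Among miRNAs known from injury and cell activation, miR-21a was the clearest. miR-21a-5p, at chr11:86584120-86584141 on the minus strand within the annotated gene Vmp1, had a signal of 1384 ± 122 in sham and 5135 ± 445 at 12 h. Its ratio was 1.64 ± 0.18, and lay between 1.21 and 2.14 under the alternatives. It reached 2628, 10162, and 8163 at 6, 24, and 48 h, so 12 h was neither the lowest nor the highest time after reperfusion. The other arm, miR-21a-3p, was not detected in sham and had a signal of 36.5 at 12 h. miR-132-3p, a miRNA known to follow neuronal and immune cell activity, was likewise not detected in sham and had signals of 17.7, 19.1, 26.0, and 12.4 at 6, 12, 24, and 48 h, and its cluster neighbour miR-212-3p had a ratio of 0.20 ± 0.17. miR-222-3p was called higher (6.65 to 22.9, 1.53 ± 0.53), but it was dim in sham, was 0.87 with matched probes, and turned to −1.37 with the deposited gene totals. Of the 9 miRNAs of this list, 6 were detected on both arrays, 2 were called higher (beside 23.1% of all miRNAs) and none lower, and the median of 0.28 turned to −0.15 after spike-in scaling, −0.12 after quantile normalization, and −0.05 with the gene totals.

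Of the miRNAs known from hypoxia and p53, none lay above the median. miR-210-3p, at chr7:141221407-141221428 on the minus strand, had a signal of 46.6 ± 4.74 in sham and 13.9 ± 2.96 at 12 h, and its ratio of −1.995 ± 0.34 was the lowest of all 208. It was 41.7, 19.5, and 13.9 at 6, 24, and 48 h, so sham and 6 h were high and the 3 arrays of slide 2 were low. Under the alternatives its ratio lay between −4.25 and −1.34, and it was read by 2 detected probes in sham and 1 at 12 h. miR-34a-5p, a miRNA induced by p53, lies at chr4:150068473-150068494 on the plus strand. Its signal was 391 ± 34.99 in sham and 221 ± 19.3 at 12 h, a ratio of −1.08 ± 0.18, and was 680, 391, and 278 at 6, 24, and 48 h. The list held 6 miRNAs, of which 3 were detected on both arrays and 2 were called lower, beside 2.88% of all miRNAs, but miR-34a-5p lay at −0.69 in the processed table and −0.78 with normexp. miR-34b-5p (11.4 to 9.06) had a ratio of −0.58 ± 0.53, and miR-34b-3p and both arms of miR-34c were detected on neither array.

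Markers of kidney cell types were compared next. The tubule list had 10 of 11 members detected on both arrays, none called, and a median of −0.01, with miR-30b-5p highest (0.56) and miR-10a-5p lowest (−0.84). After spike-in scaling the median was −0.44, beside −0.43 for all 208 miRNAs. On that scale 2 of the 10, miR-10a-5p (−1.27) and miR-10b-5p (−1.17), were called lower, beside 16.3% of all miRNAs. miR-192-5p, a marker of proximal tubule, went from 1229 to 1141, a ratio of −0.36 ± 0.17, and miR-30c-5p from 1154 to 1648, 0.26 ± 0.17. The epithelial miR-200 family with miR-182, miR-183, and miR-96 had 5 of 9 members on both arrays with a median of −0.35, and miR-183-5p was detected only in sham (10.3). miR-126-3p of endothelium went from 1378 to 1159 (−0.50 ± 0.15, or −0.93 after spike-in scaling), while miR-126-5p was detected only in sham (6.37). miR-451a of red blood cells went from 266 to 302 (−0.07 ± 0.15). None of 10 miRNAs typical of other tissues, among them miR-122-5p of liver, miR-124-3p of brain, and miR-1a-3p of muscle, was detected on either array. In whole tissue, fewer cells of a type and less of a miRNA per cell cannot be told apart.

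Leukocyte miRNAs did not move together. miR-223-3p, at chrX:96242884-96242905 on the plus strand, had a signal of 41.4 in sham and 107 at 12 h, and its ratio of 1.11 ± 0.21 was called higher, but lay at 0.68 after spike-in scaling and 0.51 after quantile normalization. miR-342-3p, within the gene Evl, went from 98.7 to 57.3 and was called lower (−1.04 ± 0.19), but lay at −0.51 with normexp. miR-142-3p (−0.10 ± 0.60), miR-155-5p (−0.37 ± 0.40), and miR-146a-5p (−0.46 ± 0.38) lay within 2 scanner errors of the median, and miR-142-5p, miR-150-5p, and miR-146b-5p were on neither array. Of the 7 stromal miRNAs 6 were detected on both arrays, with a median of −0.25 and 4 below the median miRNA, namely miR-199b-5p (−0.86), miR-214-3p (−0.67), miR-199a-3p (−0.35), and miR-143-3p (−0.15). miR-199a-5p lay at 0.22 ± 0.31. miR-145a-5p was called higher (7.12 to 43.0, 2.34 ± 0.46), but was −1.001 with the gene totals.

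Several families lay together on 1 side of the median without large differences. All 9 let-7 members, which share a seed, were below it, from −1.16 for let-7e-5p to −0.31 for let-7g-5p. Their median was −0.59 and stayed below 0 under every alternative. Their sequences are alike, so the members are not independent of each other. Against the same sham array, the let-7 median was also below the median miRNA at 6, 24, and 48 h (−0.23, −0.34, and −0.12). let-7b-5p went from 5269 ± 436 to 4018 ± 323, and let-7e-5p (chr17:17830366-17830387, plus strand, within Spaca6) from 592 ± 51.3 to 316 ± 27.1. let-7e-5p alone was called lower, beside 2.88% of all miRNAs, and its ratio was −0.63 in the processed table. After spike-in scaling 6 of the 9 were called lower, beside 16.3% of all miRNAs. The 7 miR-15, miR-16, miR-103, and miR-107 members had a median of −0.53, all below the median miRNA, with miR-15b-5p at −0.94 and miR-15a-5p at −0.09. The 5 miR-99, miR-100, and miR-125 members were also below it (median −0.30), and miR-100-5p was called lower at −1.20 ± 0.23, but was 3.46 with the gene totals. miR-99a-5p, which differs little from it in sequence as printed above, lay at −0.78 ± 0.18.

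The 3p arms of the miR-29 family, which is known to repress collagen messages, formed the highest seed family. All 4 detected members, these arms and miR-29c-5p with another seed, were above the median. miR-29b-3p went from 191 to 379 (0.73 ± 0.19) and miR-29a-3p from 1737 to 2253 (0.12 ± 0.18). The median of the 4 was 0.25, but −0.18 after spike-in scaling. The 5 members of the miR-23, miR-27, and miR-24 clusters had a median of 0.20, which was −0.23 after spike-in scaling, with miR-27a-3p highest at 0.41. Among 8 seed families with at least 3 members on both arrays, the 3 highest medians were those of miR-29-3p (0.13), miR-30 (0.10), and the miR-20/93/106b family (−0.32). The 3 lowest were those of miR-99/100 (−0.78), let-7 (−0.59), and miR-15/16 (−0.58). The miR-17 and miR-106b clusters (8 members, median −0.17), miR-26 and miR-101 (3, −0.06), miR-130 and miR-148 (3, −0.49), and miR-181 (2, −0.12) had no member called.

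**Figure D5:**
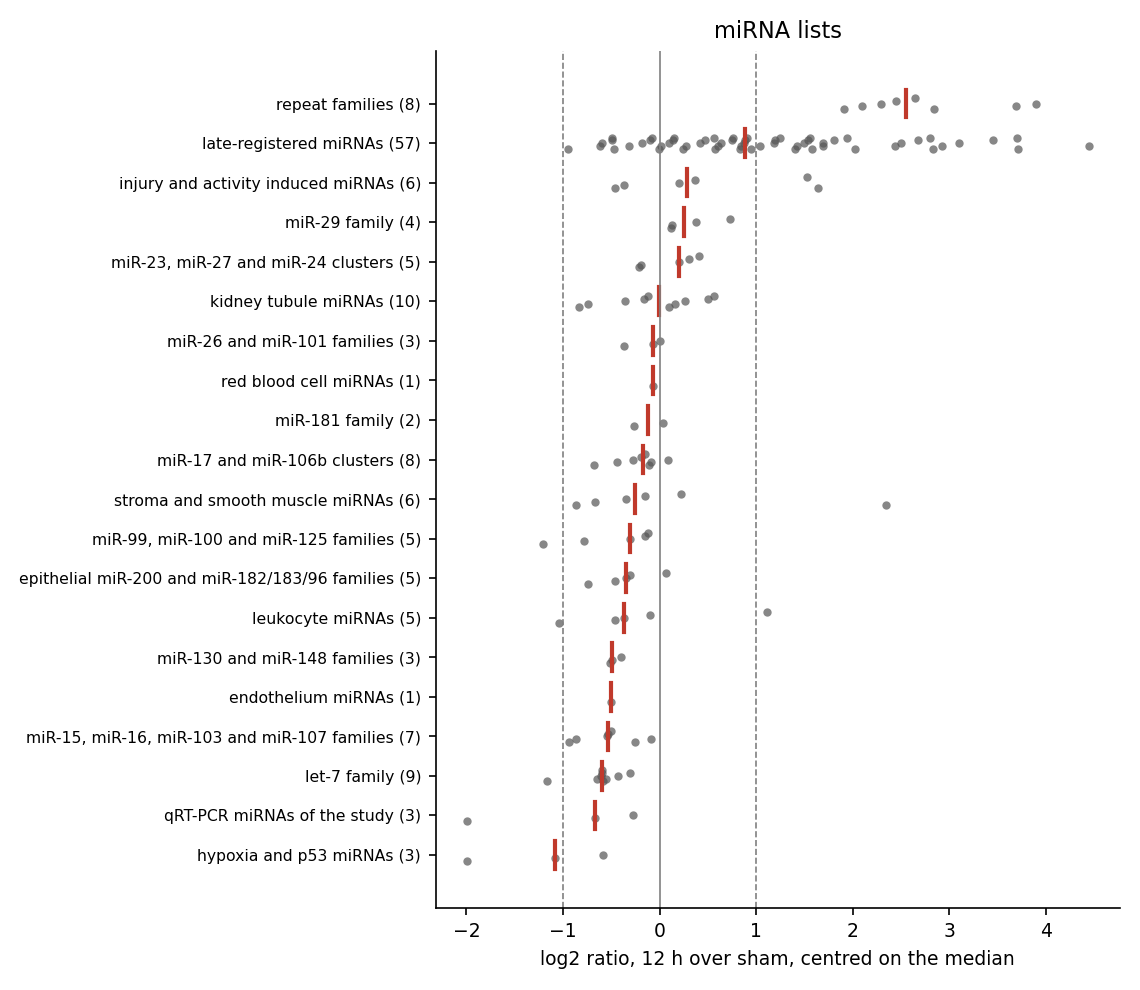
Relative log2 ratios of 12 h over sham for the miRNAs of each list detected on both arrays, with the number in brackets. Points are miRNAs, red bars are medians, and dashed lines mark 1 log2 unit; the repeat families lie highest with a median of 2.55 and the hypoxia and p53 miRNAs lowest with −1.08.

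Of the 6 miRNAs that were followed by qRT-PCR in the study, 3 were detected on both arrays. miR-210-3p lay at −1.995, miR-214-3p (22.0 to 16.6) at −0.67 ± 0.33, and miR-18a-5p (10.6 to 10.4) at −0.27 ± 0.50. miR-134-5p was detected at 12 h (26.0) and not in sham, and miR-34b-3p and miR-182-5p were detected on neither array. Signals of miR-214-3p and miR-18a-5p were near the detection limit, and their ratios ran from −3.13 and −3.66 in the processed table to 1.45 and 1.275 with the gene totals.

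Arms of the same hairpin could be compared for 12 hairpins with both arms on both arrays, which share a precursor but not a probe. The median absolute difference of their ratios was 0.59, and it reached 1 in 3 hairpins. miR-125a-5p was nearly level (147 to 158, −0.15) while miR-125a-3p went from 19.3 to 122 (2.41), a difference of −2.55 ± 0.26. The 5p arm was also lower than the 3p arm for miR-200a, by −1.48 ± 0.49, and for miR-1839, by −1.05 ± 0.40. In 11 further hairpins 1 arm was detected on both arrays and the other only at 12 h. Among them were miR-21a, miR-195a, miR-483, and miR-574. In 2 hairpins the second arm had signal in sham alone. The whole array leaned the same way, with 71 of 1247 miRNAs found at 12 h alone and 11 in sham alone. The counts of hairpins are therefore not read as a difference between arms.

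Neighbours in a genomic cluster were close in some cases and far apart in others. let-7d-5p (−0.60) and let-7a-5p (−0.59) were close, as were miR-25-3p (−0.15) and miR-93-5p (−0.11). The miR-99b, let-7e, and miR-125a cluster spans chr17:17830194-17830876 on the plus strand, and its ratios ran from −1.16 for let-7e-5p over −0.30 for miR-99b-5p to 2.41 for miR-125a-3p. In the large imprinted cluster on chromosome 12 (chr12:109709065-109747949, plus strand), 70 miRNAs could be placed by a matched sequence. Of these 70, 2 were detected on both arrays and 2 at 12 h but not in sham. Among all 1247 miRNAs the same counts were 208 and 71. miR-487b-3p had no matched sequence and was not counted, although it too was found at 12 h and not in sham. miR-494-3p went from 169 to 1098, a ratio of 2.45 ± 0.16, and miR-3072-5p lay at 0.75, while miR-134-5p (26.0) and miR-487b-5p (17.9) were detected at 12 h and not in sham. On the other arrays, miR-134-5p was found at 6 h (18.3) and 24 h (6.32), and miR-487b-5p at 24 h (49.7).

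The 71 miRNAs detected only at 12 h were dim, with signals from 4.70 to 83.1 and a median of 17.0, and together they held 1.08% of the 12 h signal. After miR-574-3p the highest signals were those of miR-3102-5p.2-5p (73.7), miR-5112 (72.3), miR-3472 (71.7), and miR-466g (67.3). Of the 56 with a sequence, 33 had a GC content of 60% or more, beside 34 of the 170 detected on both arrays. The share among all miRNAs on the array was not counted, so these numbers are not read as a result about GC content. The 11 detected only in sham had signals from 3.86 to 10.702, the highest being miR-30b-3p (10.702), miR-183-5p (10.3), miR-181c-5p (9.94), miR-503-5p (9.33), and miR-504-3p (8.61). The lowest detected signal was 3.32 in sham and 4.70 at 12 h, so the absence of these miRNAs from an array means only that they were not detectable there.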

How the data were processed

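Labelled kidney RNA was measured on 1 array per group. The authors deposited scanner intensity values from Agilent Feature Extraction 10.7.1.1 (version per the labels), background-subtracted and not normalized between arrays, with a detection flag of unit other, and a processed log2 table whose making and scale are not given in the sources used here. Probe signals above 3 times their error were summed per miRNA and divided by the effective feature size (0.6 for sham, where it is a default, and 0.774 at 12 h), because the deposited total gene signal differed by over 1% from the sum of its own probes in 58 of 219 detected miRNAs in sham and 81 of 279 at 12 h. Log2 ratios were centred on the median. Their errors combine the relative scanner errors of both arrays. The number of arrays limits the precision, and no test was made.

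Named were the 15 highest and 15 lowest ratios with an error below 0.5, the 10 highest 12 h signals, the 5 brightest miRNAs detected on a single array, seed families, and listed miRNAs. Members and lists were chosen with earlier results of these data known. The alternatives covered scaling, probe summary, background correction (normexp, offset 50), detection limit, and the processed table. Computation used R 4.3.3 with limma 3.58.1, and Python 3.11.15 with numpy 2.4.6, pandas 2.3.3, and statsmodels 0.14.6. The functions were tested on simulated data.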

Additional observations from a re-analysis of the deposited data

Results flagged for a closer look

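The control probes, which lie outside the miRNA comparison, gave higher signals at 12 h than in sham for all 4 spike-in RNAs. The log2 ratio of 12 h over sham was 0.65 ± 0.17 (scanner error) for dmr_285, 0.46 ± 0.15 for dmr_31a, 1.31 ± 0.15 for dmr_6, and 0.33 ± 0.18 for dmr_3. They were singled out because a signal outside the main measurement lay above its level on the control array. Their mean, 0.69, exceeds the median miRNA ratio of 0.25, and dmr_6 lies more than 2 combined scanner errors above each of the other 3, which lie within 2 of each other. Its part in the miRNA ratios was not tested, and slide and group cannot be told apart.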

How the results depend on the processing

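For miRNAs with signal on both arrays the median log2 ratio was 0.25. It was −0.43 after spike-in scaling and −0.012 after scaling to the 75th percentile, so its sign turned, and it was 0.62 without division by the feature size, which follows from the unequal feature sizes. The 6 lower calls became 34 after spike-in scaling, 28 after quantile normalization, 11 with loess centring, 17 with total gene signals, 39 in the processed table, 2 with detection at 5 errors, and 1 in the brighter 104 of the 208 miRNAs. The 48 higher calls became 20 in the brighter 104, which holds fewer miRNAs, and lay between 35 and 50 under every other alternative. Of the 48, 40 were called again after spike-in scaling, 45 with matched probes, 44 in the processed table, and 36 with normexp. The number detected only in sham was 11, and 0 of them reached 3 times the lowest detected signal of the 12 h array. Detection at 5 errors left 169 miRNAs on both arrays and 50 only at 12 h, and the detection flag gave the same numbers as the main rule. Among the 70 named miRNAs with a ratio, called ratios changed sign only with the total gene signals, where values were 3.46 for miR-100-5p, −2.01 for miR-1187, −1.001 for miR-145a-5p, −2.08 for miR-1940, 0.11 for miR-200a-5p, −1.37 for miR-222-3p, −0.35 for miR-483-5p, −4.59 for miR-5115, and −2.74 for miR-5128. This column did not equal the sum of the miRNA's own probes in a share of miRNAs on each array. The rank correlation with GC content lay between 0.23 and 0.40. Leaving out the repeat-probe miRNAs, an alternative chosen after seeing the data, gave 38 higher and 5 lower calls. Apart from the total gene signals, the cause of these changes was not tested. No paired analysis was possible because there was only a single array for each group. Dim miRNAs carried the largest scanner errors, and their ratios moved most between summaries.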
